A study of Arabidopsis thaliana with 6 samples.

Results

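*CML37* (AT5G42380), *CML38* (AT1G76650) and *CML42* (AT4G20780) encode calmodulin-like proteins of *Arabidopsis*, and the messenger RNA of each was measured by 1 probe set in 3 mock and 3 4mer arrays. The 3 genes were chosen by symbol, from the 13513 probe sets that the array's annotation pairs with 1 gene, of 22746 probe sets in all. That choice was made with earlier results of these data known. Shares over all probe sets given below are therefore a description and not a test of the 3 genes. The probe sets are 249197_at for *CML37*, 259879_at for *CML38* and 254487_at for *CML42*. Both groups were whole wild-type Col-0 seedlings, 14 days old and grown in liquid MS medium. The 4mer group had received purified chitin tetramer, a chain of N-acetylglucosamine units, at 100 µg/mL for 30 min, and the mock group the same volume of water. RNA came from whole seedlings grown many to a flask, so that more expressing cells and more RNA per cell cannot be told apart. The study stated 3 independent biological replicates per group.

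Calmodulin-like proteins bind calcium through EF-hand motifs and change shape when calcium rises in the cell, which lets them act on other proteins. Calcium influx is among the first responses of a plant cell to fragments of fungal cell walls, to wounding and to touch, and sensor proteins pass that signal on. *CML37* is known as a promoter of jasmonate-dependent defense against insects, whereas *CML42* is known to restrain that defense and to take part in the branching of leaf hairs. *CML38* responds to low oxygen and wounding, and its protein gathers in stress granules under hypoxia.

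All 3 genes had a higher mean level in 4mer than in mock seedlings, the 4mer arrays lay above the mock arrays in each, and none passed the test over all probe sets. Such a separation was found in 7.86% of the 22746 probe sets, and 0.0659% were higher and passed (limma, adjusted p under 0.05). Levels are given as the probe set signal divided by the median signal of the same array. *CML37* was 1.83-fold higher (95% interval of limma 1.1 to 3.04, adjusted p = 0.373). For *CML38* the fold was 1.31 (1.13 to 1.53, adjusted p = 0.203), and for *CML42* it was 1.19 (1.06 to 1.33, adjusted p = 0.286). These intervals are not adjusted for the number of probe sets. The interval of *CML42* ends below 1.5-fold, while those of *CML38* and *CML37* include it.

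*CML37*, the promoter of insect defense, had a dim probe set. In mock seedlings its level was 0.109, 0.131 and 0.0893 in replicates 1, 2 and 3, a mean of 0.110 ± 0.021 (SD, n = 3). In 4mer seedlings it was 0.206, 0.182 and 0.208, a mean of 0.199 ± 0.014. The lowest 4mer array was 1.39 times the highest mock array, and the mock arrays spread over 1.47-fold among themselves. The log2 change was 0.87 (standard error 0.32, unadjusted p = 0.0251 and adjusted p = 0.373 from limma). Between 13.2% and 21.2% of the probe sets of an array were dimmer than *CML37*, and detection calls were not used here, so a signal above background is not established for it. Over the 5686 dimmest probe sets, to which it belongs, the median standard error of the log2 change was 0.59, against 0.10 over the 5687 brightest. When levels below 0.25 were set to 0.25 no difference was left for *CML37*, since all 6 of its values lie below that floor, and adding 0.25 to every level lowered its log2 change to 0.32.

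*CML38*, the hypoxia and wounding gene, had mock levels of 2.12, 1.84 and 1.86 in replicates 1, 2 and 3, a mean of 1.94 ± 0.16 (SD, n = 3). Its 4mer levels were 2.39, 2.57 and 2.68, a mean of 2.55 ± 0.14. The groups did not overlap, and mock replicate 1 and 4mer replicate 1 were the arrays nearest to each other, 1.13-fold apart. The log2 change was 0.39 (standard error 0.10, unadjusted p = 0.00345 and adjusted p = 0.203 from limma). Mock replicate 1 stood apart from the other arrays over the 11373 brighter probe sets, with correlations of 0.947 to 0.957 where those among the other 5 arrays were 0.984 to 0.994. Without that array the log2 change of *CML38* was 0.46 and it passed the test (adjusted p = 0.0375 from limma), while 0.8% of all probe sets were higher and passed in that fit. Without any other single array the adjusted p of *CML38* lay between 0.352 and 0.562.

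*CML42*, which restrains insect defense, was measured with the smallest spread of the 3 genes. Its mock levels were 4.01, 4.17 and 4.17 in replicates 1, 2 and 3, and its 4mer levels were 4.69, 5.03 and 4.97. The means were 4.12 ± 0.09 (SD, n = 3) and 4.90 ± 0.18, and the SD was 2.19% of the mean in mock and 3.62% in 4mer seedlings. The lowest 4mer array was 1.13 times the highest mock array, although the mock arrays themselves spread over only 1.04-fold. The log2 change was 0.25 (standard error 0.07, unadjusted p = 0.00845 and adjusted p = 0.286 from limma). Leaving out mock replicate 1 brought the adjusted p to 0.0964, and leaving out each of the other arrays gave between 0.375 and 0.645.

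**Figure D1:**
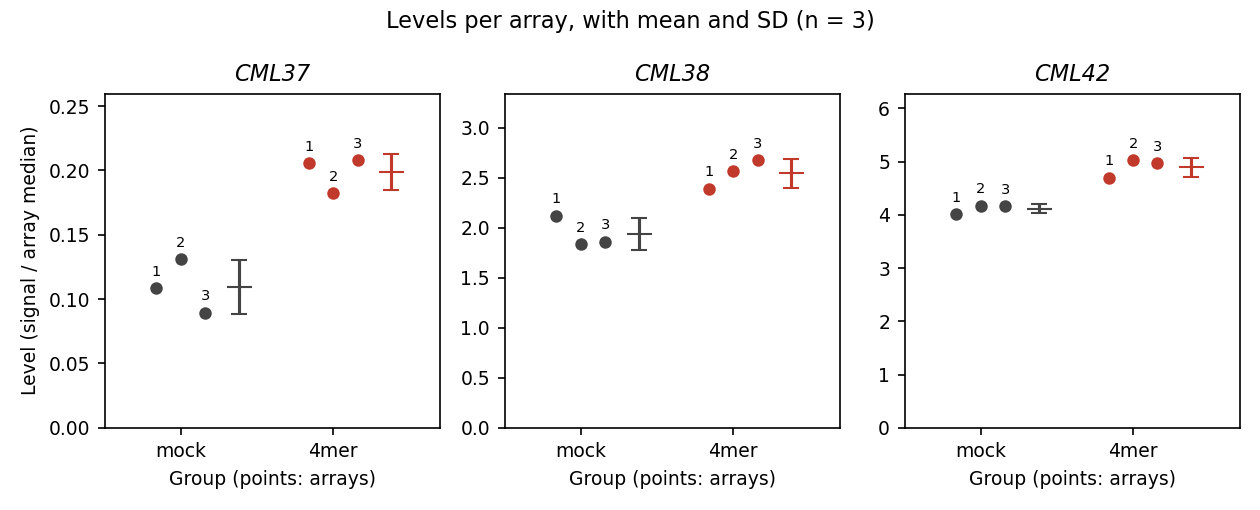
Levels of *CML37*, *CML38* and *CML42* (y axis, signal divided by the array median, each panel with its own scale from 0) in mock and 4mer seedlings; points are single arrays with their replicate number, and the bar beside them is the mean with the SD of 3 arrays. In each panel the 3 4mer arrays lie above the 3 mock arrays, by a ratio of 1.39 for *CML37* and 1.13 for the other two.

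Of all probe sets, 23 passed limma's test in either direction, 15 higher and 8 lower, which is 0.101%, and 0 of the 3 genes were among them. The SAM statistic over all 20 label permutations did not call them either. SAM called 0 probe sets higher and 4 lower, and limma without a variance trend 0 higher and 2 lower. At an unadjusted p under 0.05, 4.54% of the probe sets were higher, and all 3 genes were. The genes had been chosen with earlier results of these data known, so this share does not test them. By the unadjusted p, *CML38* was in place 386, *CML42* in place 672 and *CML37* in place 1529 of all probe sets. Only *CML37* was at least 1.5-fold higher, which holds for 6.23% of all probe sets, for 11.1% of the 11373 dimmer ones and for 1.34% of the brighter ones, where *CML38* and *CML42* lie. With 3 arrays a group, 0.10 is the smallest two-sided p of an exact permutation test, and each of the 3 genes had this value. The median log2 change over all probe sets was -0.01.

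**Figure D2:**
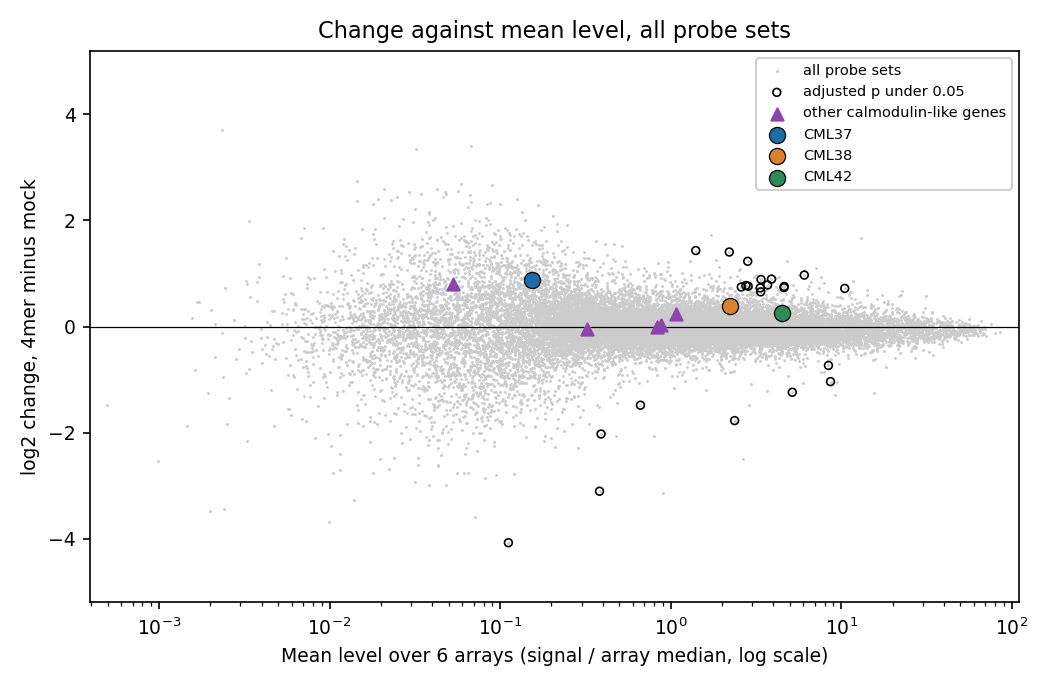
Log2 change, 4mer minus mock (y axis), against the mean level over 6 arrays (x axis, log scale) for all probe sets in grey; open circles passed at an adjusted p under 0.05, triangles are the other measured calmodulin-like genes and large points are the 3 genes. The grey cloud widens toward low levels, where *CML37* with 0.87 lies within it, and *CML38* and *CML42* lie at 0.39 and 0.25, below the open circles of higher probe sets.

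Whether the 3 genes changed unequally was tested on the difference of their log2 levels within each array, for 3 pairs. The log2 change of *CML37* exceeded that of *CML42* by 0.62, and the groups of arrays did not overlap in this difference (two-sided exact permutation test, p = 0.10, adjusted p = 0.30). It exceeded that of *CML38* by 0.48, with overlapping groups (p = 0.20 from the same exact test, adjusted p = 0.30). *CML38* exceeded *CML42* by 0.14, again with overlap (exact p = 0.30, adjusted p = 0.30). Unequal change was therefore not shown for any pair, in a design that cannot go below 0.10. As a description, 4mer replicate 1 was the lowest of its group for *CML38* and *CML42*, and 4mer replicate 2 for *CML37*.

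Among the other 5 measured calmodulin-like genes, no gene separated the 2 groups of arrays. Over all probe sets, 4mer arrays lay above mock arrays in 7.86% and below them in 12.5%. With so few genes, finding none sets the family apart neither from all probe sets nor from the 3 genes. Of 21 genes listed as calmodulin or calmodulin-like by symbol or synonym, 8 were measured. Measured means throughout that the array's annotation pairs a probe set with that gene alone. The remaining genes of each list may still have probe sets among the 8730 that the annotation does not list. The 5 besides *CML37*, *CML38* and *CML42* comprised 3 higher and 2 lower, with a median log2 change of 0.04, and none had an unadjusted p under 0.05. *CML23*, a sensor linked to nitric oxide and flowering time, had mock levels of 1.05, 0.930 and 0.951 and 4mer levels of 1.04, 1.08 and 1.38. Its groups overlapped, and the log2 change was 0.25 (adjusted p = 0.559 from limma), with a standard error of 0.15 where that of *CML42* was 0.07.

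AT1G76640, listed as CML39, adjoins *CML38* on the chromosome in the TAIR10.1 gene table. Its mock levels were 0.0334, 0.0632 and 0.0209 and its 4mer levels 0.0446, 0.0492 and 0.106. The groups overlapped, and the log2 change of 0.80 had an interval from -0.60 to 2.20 (adjusted p = 0.647 from limma). That table also lists CML39 as a synonym of *CML37*, and the probe set of each locus is distinct. On its other side *CML38* adjoins AT1G76660, with a log2 change of -0.18 (adjusted p = 0.822). The neighbors of *CML37* had log2 changes of 0.12 and 0.07, and those of *CML42* of -0.04 and 0.39, with adjusted p-values of 0.778 to 0.979. In none of these 6 neighboring genes were all 4mer arrays above all mock arrays.

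*CML43*, the relative of *CML42*, had mock levels of 1.23, 0.821 and 0.598 and 4mer levels of 1.002, 0.676 and 0.964, which overlap fully. Its log2 change was 0.04, with an interval from 0.663-fold to 1.59-fold (adjusted p = 0.973 from limma). *CML41*, whose protein acts at plasmodesmata in immunity, had a log2 change of -0.04 (0.646-fold to 1.46-fold, adjusted p = 0.969). *CML30* had one of -0.01 (0.784-fold to 1.26-fold, adjusted p = 0.987). Changes of the size of *CML38* lie within all of these intervals except that of *CML30*. A difference in response between the 3 genes and the other members of the family was not tested.

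**Figure D3:**
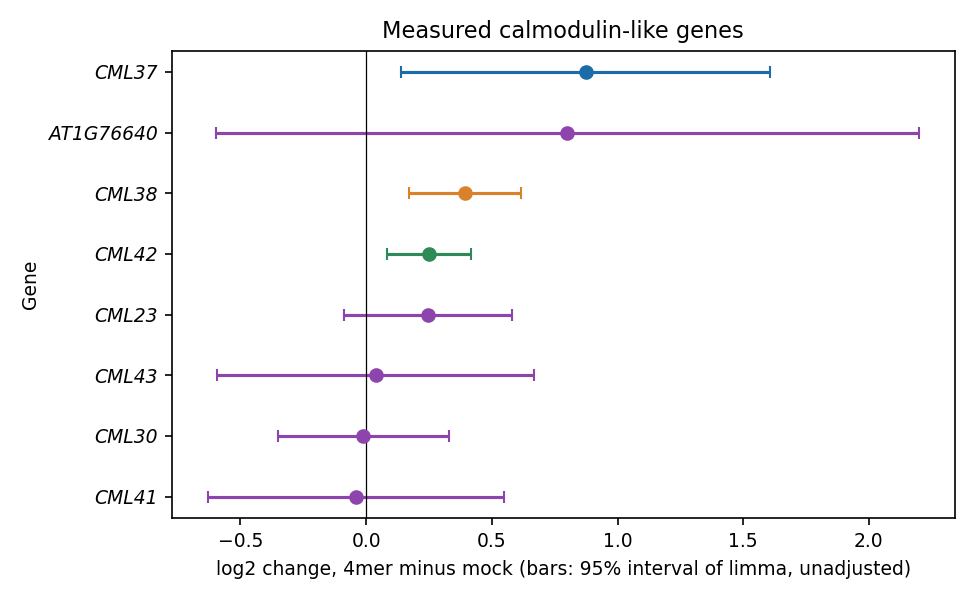
Log2 change, 4mer minus mock (x axis), of the 8 measured calmodulin-like genes (y axis), with the 95% interval of limma as bars, not adjusted for the number of probe sets. The intervals of *CML37*, *CML38* and *CML42* lie above 0 and those of the other 5 genes include 0, the widest being that of AT1G76640 from -0.60 to 2.20.

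The other measured calcium genes, which were calmodulin-like, glutamate receptor-like and IQD genes, showed no common direction. Across the 4 lists of calcium genes, 25 genes besides the 3 were measured, with 14 higher, 11 lower and a median log2 change of 0.06. None of them passed limma's test, none had an unadjusted p under 0.05, and SAM called 0. At that unadjusted threshold in limma, 1032 of all 22746 probe sets were higher and 1560 lower. In *GLR2.9* and *IQD24*, 2 of the 25, all 4mer arrays lay below all mock arrays, as in 12.5% of all probe sets. *GLR2.9*, with levels of 0.0165 to 0.0243 over the 6 arrays, was much dimmer than *CML37*. Of 75 genes of calcium channels, pumps and exchangers, 8 were measured, all of them glutamate receptor-like genes, with 3 higher and 5 lower. *GLR3.3*, a channel needed for the spread of wound signals between leaves, was at 1.25 ± 0.06 (SD, n = 3) in mock and 1.37 ± 0.14 in 4mer seedlings. The log2 change was 0.13 (adjusted p = 0.705). *GLR2.7* had -0.28 (adjusted p = 0.607) and *GLR1.4* had -0.14 (adjusted p = 0.784). Of 49 genes of calmodulin-binding regulators, 12 were measured, all of the IQD family, whose proteins bind calmodulin through IQ motifs. Among these 8 were higher and 4 lower, and the smallest p-values belonged to *IQD24* with a log2 change of -0.15, *IQD31* with 0.26 and *IQD28* with 0.15, at adjusted p-values of 0.627 to 0.729. None of the 70 listed calcium-dependent kinases, CBL and CIPK genes is named among the probe sets.

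Genes of the processes in which *CML37*, *CML38* and *CML42* take part were few on the named probe sets and went in both directions. Of the jasmonate genes, 5 of 45 were measured, 2 higher and 3 lower. *PDF1.2*, a defensin gene of jasmonate and ethylene signaling, was at 0.489, 0.347 and 0.350 in mock and at 0.209, 0.249 and 0.211 in 4mer seedlings, so that all 4mer arrays were below all mock arrays, as in 12.5% of all probe sets. Its log2 change was -0.81 (adjusted p = 0.309 from limma). The related *PDF1.2b* had -0.49 (adjusted p = 0.539), and the transcription factor gene *MYC3*, which drives jasmonate responses, had 0.12 (adjusted p = 0.838).

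Of the hypoxia genes, 2 of 21 were measured and both were lower. AT3G10040, listed as HRA1, which attenuates the hypoxia response, was at 1.56, 2.82 and 2.83 in mock and 1.32, 2.09 and 1.21 in 4mer seedlings. Mock replicate 1 lay among the 4mer arrays there, and the log2 change was -0.63 (adjusted p = 0.443 from limma). *PDC2*, a pyruvate decarboxylase gene, had -0.27 (adjusted p = 0.689). Neither gene passed the test, and *CML38* did not pass it on the same arrays. A relation between *CML38* and the hypoxia genes was not tested. Of the genes of leaf hairs, 3 of 18 were measured, 2 higher and 1 lower. *SIM*, which encodes an inhibitor of the cell cycle in leaf hairs, was at 3.50, 2.98 and 2.93 in mock and 2.43, 2.50 and 2.45 in 4mer seedlings, without overlap (log2 change -0.35, adjusted p = 0.25). In 12.5% of all probe sets the 4mer arrays lay below the mock arrays in this way. *TRY* had 0.77 (adjusted p = 0.714) and *AN* had 0.05 (adjusted p = 0.940).

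Among the touch genes, 2 of 13 were measured, and 4mer arrays lay above mock arrays in both, as in 7.86% of all probe sets. The list was chosen with earlier results of these data known, and a response of touch genes was not tested. *STZ*, a zinc finger repressor gene, was at 3.50, 3.43 and 3.46 in mock and 5.68, 6.13 and 5.49 in 4mer seedlings. The log2 change was 0.74 (adjusted p = 0.0218 from limma), and *STZ* was the 1 gene of all 8 lists that passed. This call held under 5 of 14 alternatives and was lost under the other 9, among them SAM, the fit without a variance trend (adjusted p = 0.205) and leaving out any array but mock replicate 1 (0.107 to 0.171). The log2 change of *STZ* lay between 0.69 and 0.77 in all of these. *WRKY53*, a transcription factor gene of defense and senescence, was at 0.786, 0.651 and 0.586 in mock and 1.05, 1.25 and 0.912 in 4mer seedlings (log2 change 0.67, adjusted p = 0.239).

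The genes most like each of the 3 were ranked by Pearson's r of the log2 levels over the 6 arrays, among 9637 named probe sets with a mean level of at least 0.25. The difference between the groups enters this r, and all points share the same 6 arrays. For *CML37* these were AT5G10750, AT4G37880 and AT1G22550, with r of 0.995, 0.995 and 0.994. Their log2 changes of 0.18, 0.16 and 0.20 were smaller than the 0.87 of *CML37*, so a high r did not mean a change of the same size. AT5G10750 was at 2.16, 2.21 and 2.07 in mock and 2.44, 2.38 and 2.47 in 4mer seedlings, with the lowest array of each group being the same as for *CML37*. For *CML38* they were AT2G33360, AT1G66090 and AT5G24600, with r of 0.990, 0.988 and 0.987 and log2 changes of 0.80, 0.64 and 0.47. AT2G33360 was at 0.488, 0.347 and 0.397 in mock and 0.607, 0.702 and 0.834 in 4mer seedlings. For *CML42* they were AT5G39580, AT1G23790 and AT5G57070, with r of 0.997, 0.996 and 0.993 and log2 changes of 0.65, 0.31 and 0.39. AT5G39580 was at 2.20, 2.39 and 2.38 in mock and 3.17, 4.04 and 3.80 in 4mer seedlings. None of these 9 genes passed limma's test, and the smallest adjusted p was 0.0755, for AT5G39580. An r above 0.9 was reached by 93 genes with *CML37*, 119 with *CML38* and 146 with *CML42*.

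The labelled tissue could be checked with few marker genes. Of 10 shoot markers 1 is named here, *RCA*, the Rubisco activase gene of green tissue, at 47.8 to 67.4 in mock and 48.7 to 55.0 in 4mer seedlings. Of 12 root markers 2 are named, both of root hairs. *EXPA7* was at 0.682 to 1.48 in mock and 1.24 to 1.40 in 4mer seedlings. *EXPA18* was at 1.71 to 1.99 in mock and 1.24 to 1.51 in 4mer seedlings, without overlap, as in 12.5% of all probe sets for this direction. The part of these markers in the values of *CML37*, *CML38* and *CML42* was not tested. No marker of flowers or pollen and none of the 3 of leaf hairs is named. The median signal of the arrays lay between 197.9 and 211.6, lowest on mock replicate 1, and the signal of each of the 3 genes before division by that median also separated the groups, the lowest 4mer array being 1.45, 1.18 and 1.13 times the highest mock array for *CML37*, *CML38* and *CML42*.

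**Figure D4:**
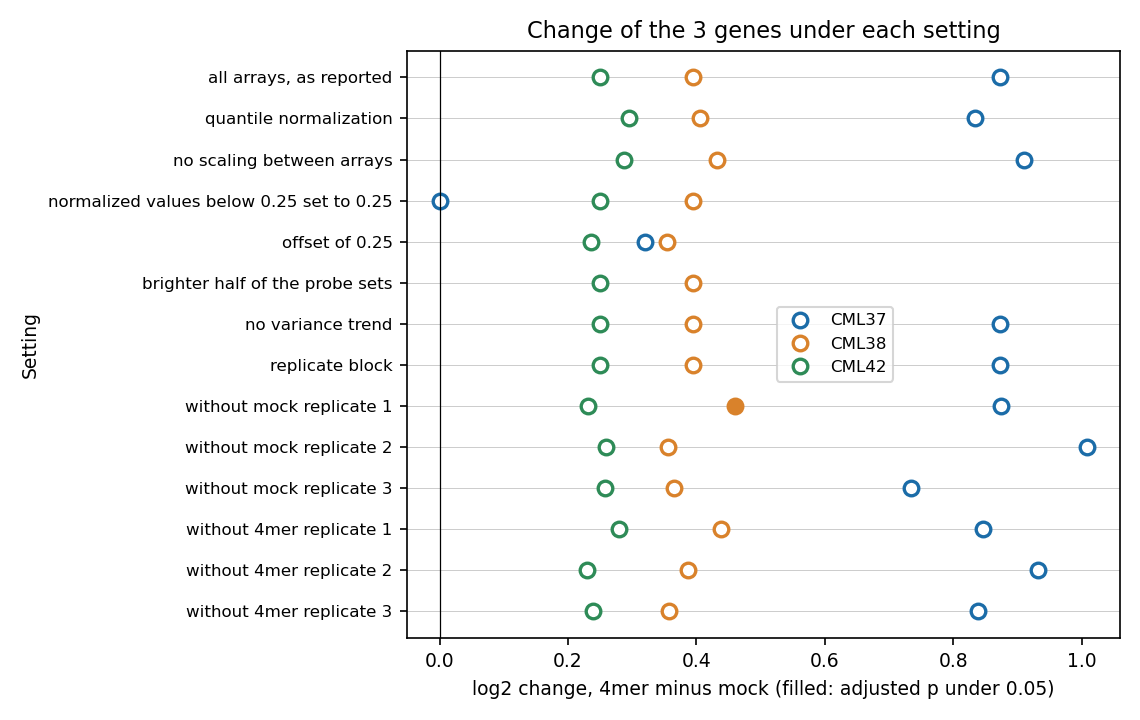
Log2 change, 4mer minus mock (x axis), of the 3 genes under each setting of the analysis (y axis); filled points had an adjusted p under 0.05. *CML38* without mock replicate 1, at 0.46, is the filled point, *CML42* stays between 0.23 and 0.30, and *CML37* falls to 0 where levels below 0.25 are set to 0.25 and is not among the 11373 brighter probe sets.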

How the data were processed

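RNA of 3 mock and 3 4mer samples was hybridized to ATH1 arrays by the authors, whose MicroArray Suite 5.0 software gave 1 signal per probe set. The deposited file holds this linear intensity under one common scaling, its target not given in the sources used here. The authors' division by the array median and by the control samples is not in them and was redone here for the first step. A floor of 0.01 was applied, each value was divided by its array's 50th percentile, and log2 was taken. Groups were compared over all 22746 probe sets in limma 3.58.1 (R 4.3.3; lmFit, eBayes with a variance trend), with Benjamini-Hochberg adjustment and a threshold of 0.05. The methods name SAM without a threshold, which was run as an alternative at a false discovery rate of 0.05. Probe sets were named through the array's annotation, in which 503 pair with several genes and 8730 are not listed, and through the TAIR10.1 gene table. Genes with several probe sets were represented by the brightest one. Names given are the 3 genes, the 3 smallest p-values of each of 8 lists, the relatives *CML41*, *CML43* and CML39, and the 3 genes most similar to each. The neighbors, *CML23*, *CML30* and *GLR2.9* were named after their values were seen. The members and lists were chosen with earlier results of these data known. The scripts were tested on simulated data. The number of arrays limits the precision. Figures were drawn with matplotlib 3.10.9 (Python 3.11.15).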

Additional observations from a re-analysis of the deposited data

How the results depend on the processing

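The direction of *CML38* and *CML42* was the same under every alternative run, with log2 changes of 0.35 to 0.46 and 0.23 to 0.30. For *CML37* it was the same except with levels below 0.25 set to 0.25, where the log2 change was 0. Every 4mer array lay above every mock array, also before division by the array median. Leaving out an array, a floor or an offset could therefore not have reversed the direction. SAM, the permutation test, the replicate block, the brighter probe sets and the fit without a variance trend left the log2 changes as they were. Leaving out one array in turn gave 0.73 to 1.01 for *CML37*, 0.36 to 0.46 for *CML38* and 0.23 to 0.28 for *CML42*. Over all probe sets 23 passed, 15 higher and 8 lower, against 10 with the floor of 0.25 (5 and 5), 56 among the 11373 brighter probe sets (35 and 21), 2 without a variance trend and 4 by SAM, with 0 higher in both of the last. Leaving out one array gave from 0 to 338, the highest without mock replicate 1, and from 0 to 1 for the calcium genes, the 1 being *CML38* without mock replicate 1. The call of *STZ*, followed through the same settings after the data were seen, was lost under 9 of 14, with adjusted p-values of 0.0517 with the floor of 0.25 and 0.115 with the replicate block. With the replicate number as a block 0 probe sets passed, and the adjusted p was 0.511, 0.398 and 0.456 for *CML37*, *CML38* and *CML42*. Deviations from the group means did not pair by replicate number, with correlations of -0.04, -0.01 and -0.04 for numbers 1, 2 and 3. Each gene has 1 probe set, so no mean over probe sets was run. *CML37* is not among the brighter probe sets. *CML37* is dim, and dim probe sets had larger standard errors.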
